A study of Mus musculus with 2 samples.

Results

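The 4 tissue inhibitors of metalloproteinases, *Timp1*, *Timp2*, *Timp3* and *Timp4*, and 4 matrix metalloproteinases, *Mmp2*, *Mmp14*, *Mmp15* and *Mmp16*, were followed by symbol through single cells of the fetal mouse eye. Each of the 8 symbols matched 1 of the 32285 genes in the count tables. The cells came from 2 droplet libraries of E17.5 eye cups, 1 from *Myrf* humWT/humWT and 1 from *Myrf* humdG/humdG embryos. In both genotypes a human last exon replaces the mouse exon of *Myrf*, a membrane-tethered transcription factor, on both alleles. In humdG this human exon holds the C-terminal frameshift variant of nanophthalmos, a small-eye disorder, so humWT is itself a humanized control and not an unedited mouse. The humWT allele was made in fertilized C57BL/6J eggs and the humdG allele from humWT heterozygotes.

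Each library was 1 pool of 3 eye cups per the labels, whereas the study's methods give 3 mice and 6 eyes with the cornea left in place. The labelled protocol takes off cornea, lens and optic nerve and speaks of Rx>cre *Myrf* fl/fl mice, a different cross from the labelled genotypes. With 1 library per genotype there is no replicate, so no test between genotypes was made. Intervals given here are exact 95% intervals (Poisson for a level, conditional binomial for a ratio, Clopper-Pearson for a share) and cover counting error only.

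TIMPs are secreted proteins that block matrix metalloproteinases by filling the zinc-holding active site, and *Timp3* differs from its relatives in binding tightly to the extracellular matrix. *Mmp2*, gelatinase A, is secreted as an inactive precursor that digests type IV collagen and denatured collagens once its propeptide is cut. *Mmp14*, *Mmp15* and *Mmp16* encode transmembrane proteases, and the *Mmp14* protein can cut pro-MMP2 on the cell surface with *Timp2* as the bridging molecule. In the adult eye *Timp3* is known as a product of the retinal pigment epithelium (RPE) that is deposited in Bruch's membrane, and *TIMP3* mutations cause Sorsby fundus dystrophy.

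The humWT library held 129135207 unique molecular identifiers (UMIs) in 17421 barcodes and the humdG library 114319529 UMIs in 19565 barcodes. After filtering, 16166 and 18172 cells were left, with medians of 3785 and 2625 UMIs, and 102 barcode sequences occurred in both libraries. Clustering gave 25 clusters, of which 22 received 1 of 16 class names from marker genes and are called "-like" here (muscle, tendon and cartilage besides the classes of the eye cup), so a difference from the study may come from these rebuilt names. *Myrf* itself was at 283 counts per 1000000 UMIs (CPM) in humWT and 190 CPM in humdG RPE-like cells, with 56.9% and 57.7% of its UMIs in that class. The RPE-like class joined a larger cluster, which raised 9 of 12 RPE markers (including *Ttr*, *Rlbp1*, *Rgr* and *Tyrp1*), and a smaller one that raised 8. The larger cluster did not raise *Rpe65*, *Lrat* or *Best1*, and it also raised 5 of 6 melanocyte and 2 surface epithelium markers. The smaller one also raised 3 melanocyte and 2 muscle markers. Red blood cell-like cells (509 and 247 cells), which should lack these transcripts, served as the measure of free RNA. Their level is a rough guide and not a fixed background for other classes. The 8 red blood cell markers made up 469441 CPM there in humWT and 570906 CPM in humdG. Some classes lay below it, such as neurogenic-like cells at 18.0 and 9.98 CPM of *Timp3*. How free RNA varies with the depth or RNA content of a class was not tested. Cells with *Xist* and no Y-linked UMI were 28.2% of the humWT and 59.9% of the humdG cells that showed only 1 of these marks, so the sexes were mixed unequally.

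Over the cells kept, *Timp2* gave 23954 UMIs in humWT and 11272 in humdG, and *Mmp14* gave 23132 and 11435. *Mmp2* gave 16396 and 7323, *Mmp16* 16256 and 10801, and *Timp3* 12633 and 6919. *Timp1* was sparser at 1983 and 905 UMIs, as was *Mmp15* at 1665 and 1055. *Timp4* was close to undetected, with 63 and 41 UMIs. All 8 genes passed the minimum of 50 UMIs over both libraries in this total, but within a class fewer did, as stated at each count. Levels are compared here between cell classes for 1 gene at a time and not between genes.

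In GRCm38, *Timp3* lies on chr10:86300372-86349506 (plus strand), *Timp2* on chr11:118301069-118355740 (minus), *Timp1* on chrX:20870166-20874735 (plus) and *Timp4* on chr6:115241892-115252205 (minus). *Mmp2* lies on chr8:92827291-92853420, *Mmp15* on the same chromosome at chr8:95352268-95375080, *Mmp14* on chr14:54431612-54445364 and *Mmp16* on chr4:17852893-18119145, each on the plus strand. *Timp1*, *Timp3* and *Timp4* lie inside the synapsin genes *Syn1*, *Syn3* and *Syn2*, on the opposite strand, and *Timp2* overlaps *Cep295nl* on its own strand. The sources used here do not state how strand and introns were counted, so reads of these pairs could in part be shared. *Syn3* had 2238 and 2364 UMIs over all cells.

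RefSeq promoters (GRCm38.p6) were matched for 6 of the 8 genes, all but *Mmp2* and *Mmp16*, and the 250 bases before the start were searched on both strands. The letters CTGGNAC, with N for any base, were searched as a loose form of the core that MYRF binds. Whether MYRF binds with each base at N was not tested, and N is G in the *Timp3* and *Mmp14* matches and C in those of *Timp2*. They occurred in the promoters of *Timp3*, *Timp2* and *Mmp14*, which are printed in the gene's direction with the match in capitals (a match on the other strand reads GTNCCAG).

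Timp3, chr10:86300162-86300411, plus strand: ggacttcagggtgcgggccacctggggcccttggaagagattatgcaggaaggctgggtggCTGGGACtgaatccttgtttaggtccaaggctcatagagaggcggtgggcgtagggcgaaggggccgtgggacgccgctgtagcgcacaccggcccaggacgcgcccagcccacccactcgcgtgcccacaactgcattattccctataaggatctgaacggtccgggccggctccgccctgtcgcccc
Timp2, chr11:118355412-118355661, minus strand: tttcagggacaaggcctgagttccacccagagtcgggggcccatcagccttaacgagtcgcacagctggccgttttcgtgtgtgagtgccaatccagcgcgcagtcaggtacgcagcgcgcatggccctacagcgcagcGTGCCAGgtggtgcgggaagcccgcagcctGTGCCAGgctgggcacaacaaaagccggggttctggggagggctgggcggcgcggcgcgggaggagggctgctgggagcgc
Mmp14, chr14:54431348-54431597, plus strand: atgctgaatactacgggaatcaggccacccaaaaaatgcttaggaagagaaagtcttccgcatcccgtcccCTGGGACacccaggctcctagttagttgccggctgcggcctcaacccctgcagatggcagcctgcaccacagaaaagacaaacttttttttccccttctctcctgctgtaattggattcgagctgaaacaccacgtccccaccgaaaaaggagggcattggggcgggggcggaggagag

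The match began 189 bases before the RefSeq start in *Timp3* and 179 bases before it in *Mmp14*. *Timp2* held 2 matches, 111 and 81 bases before its RefSeq start. The gene span of *Timp2* given above starts further upstream, at 118355740, so by that span both matches lie inside the gene. Of all 32851 promoters of this length 16.1% held the letters, so a match describes the sequence and is not a site of binding. The GC box letters GGGCGG were found in 5 of the 6 promoters (*Timp4* had none), against 32.7% of all promoters, and overlapped none of the CTGGNAC matches.

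By summed level, *Timp3* was highest in RPE-like cells of both libraries. Its level there was 643 CPM in humWT (619 to 667; 2783 UMIs in 549 cells) and 538 CPM in humdG (510 to 567; 1394 UMIs in 465 cells). These cells were 3.4% of humWT and 2.56% of humdG cells but held 22.0% and 20.1% of the *Timp3* UMIs. The share of cells counts unnamed cluster 0, of median 2295.5 and 1651 UMIs, which held 3542 humWT and 7559 humdG cells. The next level was in blood vessel endothelium-like cells, at 341 CPM in humWT (329 to 354) and 405 CPM in humdG (383 to 427). Schwann and neural crest glia-like cells followed at 325 CPM (288 to 364) and 202 CPM (169 to 240), overlapping with endothelium-like cells in humWT but lying below them in humdG. Mesenchyme-like cluster 7, led by *Spp1*, *Mgp*, *Rgs5* and *Aldh1a2*, had 153 and 177 CPM. It raised 10 of 12 mesenchyme markers but also 5 of 8 mural markers, and its 10 leading genes held the mural marker *Rgs5* and no mesenchyme marker, so its mesenchyme name is only partly borne out. Mural-like cells were next with 93.1 CPM in humWT (66.2 to 127) and 173 CPM in humdG (132 to 223). Named retinal classes were lower, with 23.0 and 10.5 CPM in retinal progenitor-like cells, below the 32.4 and 11.7 CPM of red blood cell-like cells. An unnamed cluster (15) with markers of several retinal neurons was higher, at 90.7 and 37.8 CPM.

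**Figure D1:**
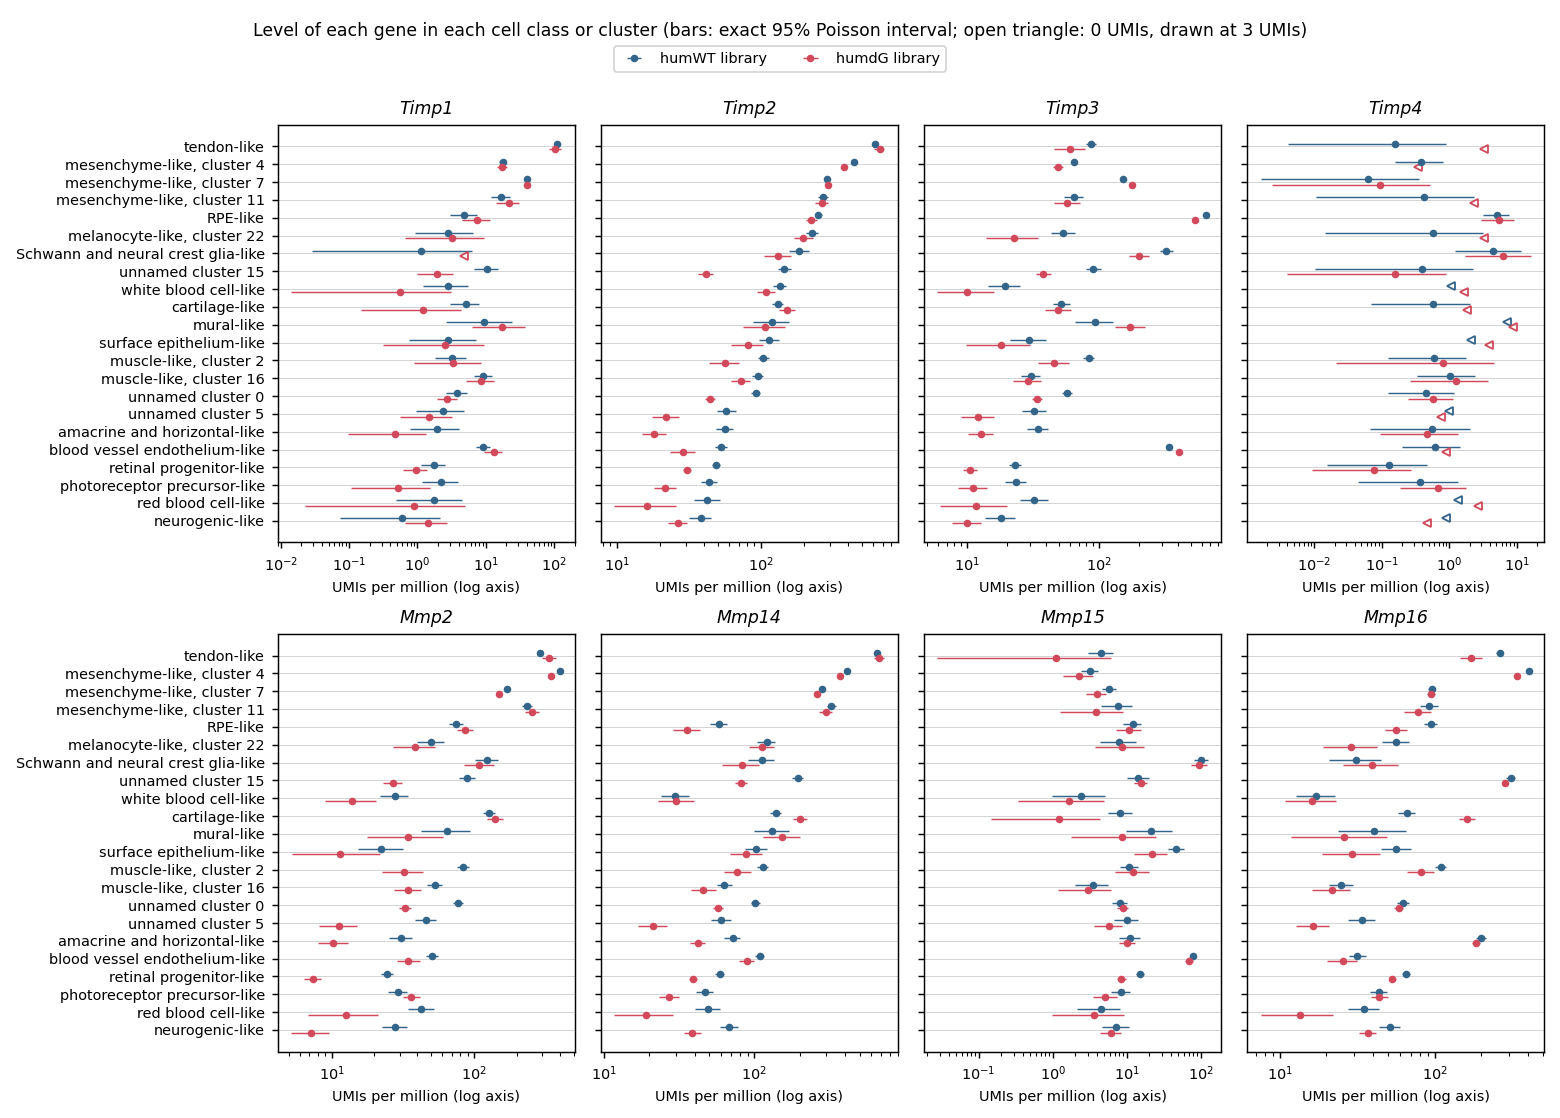
Level of each gene in CPM (log axis) in 22 cell classes or clusters, ordered by the *Timp2* level in humWT, with 1 point per library and exact 95% Poisson intervals. *Timp3* peaks in RPE-like cells (643 and 538 CPM), *Timp1*, *Timp2* and *Mmp14* in tendon-like cells, *Mmp2* and *Mmp16* in mesenchyme-like cluster 4 and *Mmp15* in Schwann and neural crest glia-like cells.

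The 2 RPE-like clusters differed in *Timp3*. The larger cluster had 698 CPM in humWT and 547 CPM in humdG, whereas the smaller one, of 74 and 15 cells, had 221 and 266 CPM. The level also moved with the depth of the cell. At 2000 to 5000 UMIs, *Timp3* was at 220 CPM in humWT (192 to 251; 318 cells) and 228 CPM in humdG (191 to 270; 208 cells). In cells of at least 10000 UMIs it was at 931 CPM (893 to 969; 109 cells) and 770 CPM (727 to 816; 68 cells). The summed level of the 12 RPE markers moved the same way, from 2662 to 11834 CPM in humWT and from 3098 to 10108 CPM in humdG over the same depths. Whether the shallow barcodes are damaged cells or mostly free RNA was not tested. A few deep cells carried much of the sum, with 30.04% of the humWT and 48.9% of the humdG UMIs of *Timp3* in 10 cells each. The humdG cell with the most held 14.0%.

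**Figure D2:**
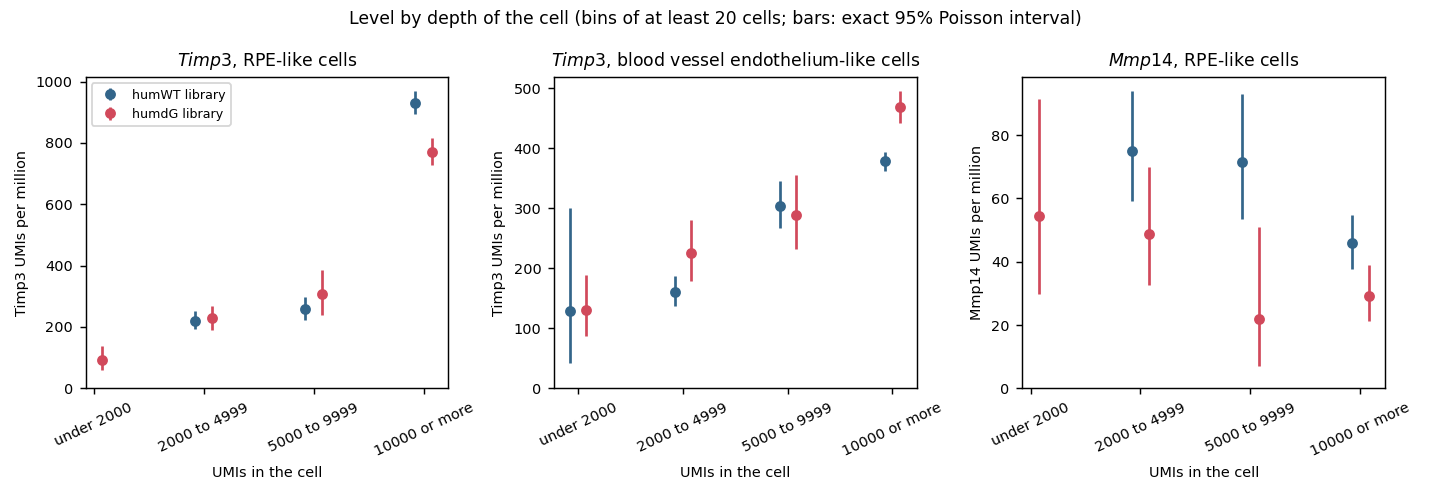
Level in CPM (linear axis from 0) by the number of UMIs in the cell, for *Timp3* in RPE-like and blood vessel endothelium-like cells and *Mmp14* in RPE-like cells, with exact 95% Poisson intervals and bins of at least 20 cells. *Timp3* is highest in the deepest cells of both classes, where humWT lies above humdG in RPE-like cells (931 and 770 CPM) and below it in endothelium-like cells (378 and 468 CPM).

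As a ratio of humdG to humWT, *Timp3* in RPE-like cells was 0.836 (0.783 to 0.892), or -0.26 on the log2 scale. The summed level of the 12 RPE markers in the same cells was also lower, at 8336 and 7253 CPM (-0.20). For *Timp3*, the larger cluster alone gave -0.35 (-0.45 to -0.26). In cells of at least 10000 UMIs humdG was also lower in *Timp3*, whereas the shallower bins overlapped between libraries. In endothelium-like cells the log2 ratio was 0.25 (0.15 to 0.34), and in mesenchyme-like cluster 7 it was 0.21 (0.12 to 0.30), so the summed level was higher in humdG. Of the alternatives, 0 of 13 and 1 of 12 had the other sign. The share of endothelium-like cells with a *Timp3* UMI overlapped, at 19.8% (16.8 to 23.1) and 18.4% (14.6 to 22.7) thinned to 1000 UMIs. In that class 10 cells held 26.8% of the humWT and 49.2% of the humdG *Timp3* UMIs. Schwann and neural crest glia-like cells gave -0.68 (-0.995 to -0.38) from 291 and 128 UMIs. After thinning each cell to 1000 UMIs, 24.6% of humWT (21.0 to 28.4) and 17.9% of humdG RPE-like cells (14.5 to 21.7) had a *Timp3* UMI. Without thinning these shares were 57.0% and 38.1%, at median depths of 3933 and 2340 UMIs. By the thinned share RPE-like cells did not stand apart, as they overlapped with endothelium-like cells in both libraries. Schwann and neural crest glia-like cells had 18.4% (8.76 to 32.0) and 20.5% (9.30 to 36.5) thinned. Unthinned, endothelium-like cells had 56.3% and 44.1%, at medians of 4479 and 2657.5 UMIs. Red blood cell-like cells, with medians of 3992 and 4191 UMIs, gave 3.19% and 1.24% thinned and 12.4% and 4.86% unthinned.

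*Timp2*, the inhibitor that also takes part in activating pro-MMP2, was highest in tendon-like cells. Its level there was 622 CPM in humWT (603 to 642) and 663 CPM in humdG (612 to 718). Mesenchyme-like cluster 4, led by *Pi16*, *Tnxb* and *Mfap5*, had 442 CPM (433 to 452) and 375 CPM (362 to 388) and lay below tendon-like cells in both libraries. Cluster 7 stood at 289 CPM in both libraries (280 to 297 and 279 to 300). Mesenchyme-like cluster 11 overlapped with it, at 268 CPM (248 to 290) and 264 CPM (236 to 293). RPE-like cells were the next, at 250 CPM (236 to 266) and 224 CPM (206 to 243), with a log2 ratio of -0.16 (-0.31 to -0.01). White blood cell-like cells had 135 and 109 CPM, above the 42.2 and 16.2 CPM of red blood cell-like cells. The lowest level in humWT was that of neurogenic-like cells, at 38.0 CPM, with 26.5 CPM in humdG.

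*Timp1*, a soluble inhibitor induced in many tissues on injury, had a narrower pattern. Tendon-like cells held 110 CPM in humWT (102 to 118; 689 UMIs) and 104 CPM in humdG (84.1 to 127; 95 UMIs). Mesenchyme-like cluster 7 followed with 39.4 CPM (36.4 to 42.6) and 40.4 CPM (36.6 to 44.4), and cluster 4 had 17.7 and 17.4 CPM. The libraries overlapped in each of these 3 groups, with log2 ratios of -0.08, 0.03 and -0.02. RPE-like cells held 21 and 19 UMIs of *Timp1*, too few to be counted in the comparison.

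*Timp4*, the inhibitor with the most restricted expression in adult tissues, had its highest count in the pigment epithelium. RPE-like cells held 22 of its 63 UMIs in humWT and 14 of 41 in humdG, or 5.08 CPM (3.19 to 7.70) and 5.40 CPM (2.95 to 9.06). The 22 UMIs lay in 19 cells and the 14 in 11 cells. Schwann and neural crest glia-like cells reached a similar level, 4.46 CPM (1.22 to 11.4) and 6.31 CPM (1.72 to 16.2), from 4 UMIs in each library. Red blood cell-like cells had 0, which allows up to 1.33 and 2.69 CPM at 3 counts. The interval of the ratio of humdG to humWT in RPE-like cells ran from 0.503 to 2.17, so differences within that range were not detectable at this depth.

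*Mmp2* was highest in the mesenchyme. Cluster 4 had 400 CPM in humWT (391 to 409) and 345 CPM in humdG (333 to 358), and held 44.2% and 41.7% of all *Mmp2* UMIs in 7.11% and 2.83% of the cells. Its cells were deep, with medians of 15394 and 16368 UMIs against 3785 and 2625 over all cells kept. The shares of UMIs set against shares of cells therefore also reflect depth. Tendon-like cells had 292 CPM (279 to 306) and 337 CPM (301 to 377), below cluster 4 in humWT and overlapping with it in humdG. Cluster 11 had 234 and 254 CPM and cluster 7 had 171 and 149 CPM. Cartilage-like cells stood at 128 and 140 CPM. RPE-like cells were lower, at 74.4 CPM (66.5 to 83.0) and 86.4 CPM (75.4 to 98.5), which was 1.75 and 6.87 times the red blood cell-like level of the same library. Their log2 ratio was 0.22 (-0.04 to 0.47), and with the red blood cell-like level subtracted (42.6 and 12.6 CPM) it was 1.21. That value has no interval and gives no direction. With RPE cells taken by 3 markers without clusters the log2 ratio was -1.41, on the other side of 0. Photoreceptor precursor-like cells had 29.2 and 36.4 CPM (log2 ratio 0.32, 0.01 to 0.63). By depth, those with 2000 to 5000 UMIs had 58.5 and 40.1 CPM of *Mmp2*, and those with at least 10000 UMIs had 15.6 and 31.5 CPM.

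*Mmp14*, the membrane protease that activates pro-MMP2, had the same 4 leading groups as *Timp2*. Tendon-like cells had 653 CPM in humWT (633 to 674) and 678 CPM in humdG (625 to 733). Cluster 4 had 410 CPM (401 to 420) and 369 CPM (356 to 381), cluster 11 324 and 298 CPM, and cluster 7 282 CPM (274 to 291) and 262 CPM (252 to 272). Cluster 4 held 32.1% and 28.5% of the *Mmp14* UMIs and cluster 7 19.2% and 24.4%. RPE-like cells stood near the bottom of the order, at 57.8 CPM (50.8 to 65.4) and 35.5 CPM (28.6 to 43.5). That was 1.17 and 1.88 times the level in red blood cell-like cells, and the log2 ratio between libraries was -0.70 (-1.06 to -0.35). With the red blood cell-like level of each library subtracted (49.2 and 18.9 CPM), the log2 ratio of *Mmp14* in RPE-like cells was 0.97, on the other side of 0. That value has no interval and rests on what little is left above these levels, above all in humWT, so it gives no direction. The same subtraction left *Timp3* at -0.22 and brought *Timp2* to -0.0039 in these cells.

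*Mmp15*, another membrane-type protease, was low in the mesenchyme, with 3.202 and 2.26 CPM in cluster 4. Schwann and neural crest glia-like cells led with 102 CPM (81.7 to 125) and 96.3 CPM (73.7 to 124). Blood vessel endothelium-like cells had 79.6 CPM (73.5 to 86.0) and 69.3 CPM (60.7 to 78.7) and held 38.3% and 22.2% of the *Mmp15* UMIs. Surface epithelium-like cells had 46.2 CPM (35.7 to 58.8; 66 UMIs) and 21.8 CPM (12.7 to 34.9; 17 UMIs), a log2 ratio of -1.08 (-1.95 to -0.30). None of these 3 classes led for *Mmp2* or *Mmp14*, and the correlation of *Mmp15* with them over classes was -0.03 and -0.02.

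*Mmp16*, also membrane-bound and known from neural tissue, was high in mesenchyme-like cluster 4 and in some groups with markers of retinal neurons. Cluster 4 had 409 CPM in humWT (399 to 418) and 338 CPM in humdG (326 to 350). Cluster 15, which raised 5 markers each of photoreceptor precursor and of amacrine and horizontal cells, came next with 309 CPM (288 to 332) and 284 CPM (271 to 297). Amacrine and horizontal-like cells had 200 CPM (186 to 215) and 186 CPM (175 to 196), against 43.6 and 44.0 CPM in photoreceptor precursor-like cells. Tendon-like cells had 263 and 172 CPM. Mesenchyme-like clusters 7 (95.8 and 94.7 CPM) and 11 (92.1 and 77.6 CPM) were lower. In RPE-like cells the levels were 94.7 CPM (85.8 to 104) and 56.7 CPM (47.9 to 66.6), with a log2 ratio of -0.74 (-1.02 to -0.47). The smaller RPE-like cluster, with 74 humWT but 15 humdG cells, had 287 and 230 CPM of *Mmp16*. In the larger cluster alone the levels were 69.5 and 51.0 CPM (log2 ratio -0.45, -0.76 to -0.14). With RPE cells taken by 3 markers without clusters, the log2 ratio was 0.01, so the lower level was not kept under that choice. It was the 1 of 14 alternatives with the other sign, and the lowest was -0.84. Of the 1117 and 516 cells so taken, 394 and 268 lay in the RPE-like clusters, so the choice brought in many other cells.

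Over the 22 classes and clusters, the largest ratio above 0 with at least 50 UMIs was that of *Mmp16* in cartilage-like cells, at 66.2 CPM in humWT and 162 CPM in humdG (log2 ratio 1.29, 1.04 to 1.55). There, however, 10 humdG cells held 88.8% of its UMIs, against 11.6% in humWT. The 20 humdG cells of at least 10000 UMIs had 178 CPM (157 to 202), and the 61 of 2000 to 5000 UMIs had 72.1 CPM (39.4 to 121). At that shallower depth humWT cartilage-like cells had 68.0 CPM (58.9 to 78.1) in 1010 cells, which overlaps with humdG.

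A gene was counted as past 2-fold only with at least 50 UMIs over both libraries. In RPE-like cells 0 of the 6 members counted were at least 2-fold lower or higher in humdG, against 3.99% and 1.61% of the 10562 genes counted. With RPE cells taken by 3 markers without clusters, 4 of 7 were lower, among them *Timp2*, *Mmp2* and *Mmp14*, and 0 higher. The share past 2-fold over all genes was not counted for that choice. That choice held 1117 and 516 cells, of which 394 and 268 lay in the RPE-like clusters, and its mesenchyme marker sum was 17126 and 2796 CPM. In mesenchyme-like cluster 4 it was 0 of 7, against 1.79% lower and 0.913% higher of 13356 genes. Cluster 7 also had 0 of 7, against 1.54% and 0.755%, and tendon-like cells 0 of 6, against 15.2% and 0.827%. Blood vessel endothelium-like cells had 0 of 7, against 2.99% and 1.17%. The median log2 ratio of the members was -0.21 in RPE-like cells, -0.24 in cluster 4, -0.02 in cluster 7, -0.01 in tendon-like and -0.28 in endothelium-like cells. Over all genes counted the medians were -0.06, -0.09, -0.09, -0.28 and -0.03. Scaled to the median gene of tendon-like cells, the ratios there were 0.36 for *Timp2*, 0.48 for *Mmp2*, 0.32 for *Mmp14*, 0.19 for *Timp1*, -0.26 for *Timp3* and -0.34 for *Mmp16*. Among the 3 leading groups of each of the 7 members counted, 1 ratio was past 2-fold, that of *Mmp15* in surface epithelium-like cells. The share past 2-fold over all genes was not counted in that class.

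**Figure D3:**
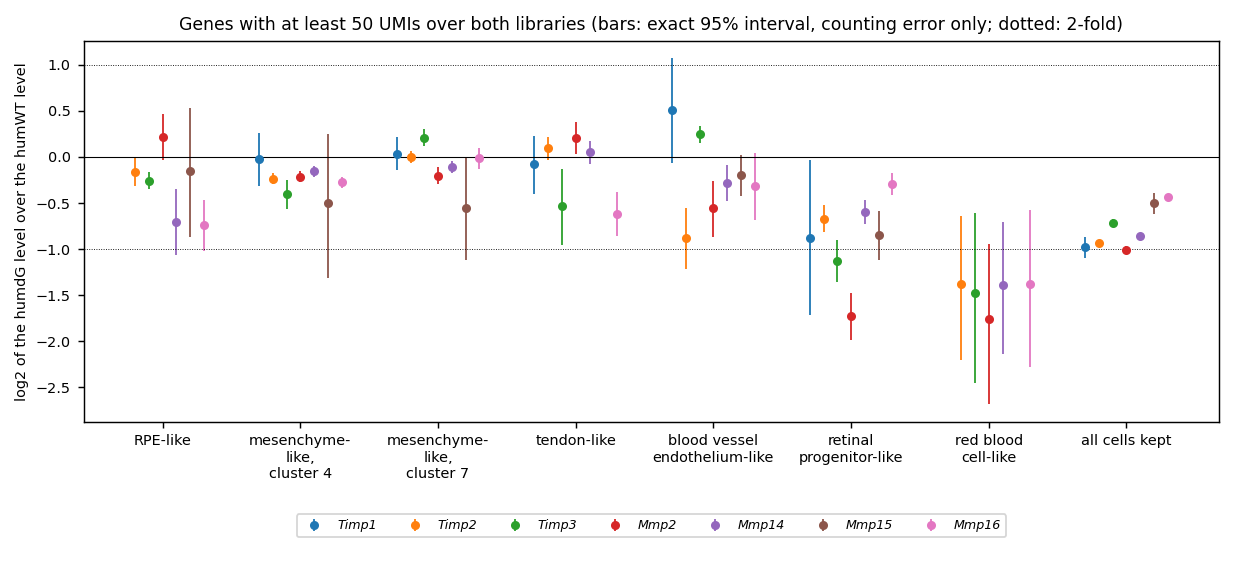
Log2 ratio of the humdG to the humWT level for each gene but *Timp4* with at least 50 UMIs in 7 classes or clusters and over all cells, with exact 95% intervals for counting error. In the classes from RPE-like to endothelium-like cells every point lies between the dotted 2-fold lines, whereas in red blood cell-like cells each of the 5 genes shown lies below -1.

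Ratios past 2-fold lower were found in several groups with low levels of these genes. In retinal progenitor-like cells 2 of 7 members, *Timp3* and *Mmp2*, were at least 2-fold lower in humdG and 0 were higher, against 4.31% and 1.14% of 14187 genes. *Mmp2* there was at 24.5 CPM in humWT and 7.38 CPM in humdG, and *Timp3* at 23.0 and 10.5 CPM, each below the red blood cell-like level of its library. In the progenitor-like cells of at least 10000 UMIs *Mmp2* was at a log2 ratio of -1.83 and *Timp3*, at -0.81, was within 2-fold. In red blood cell-like cells 5 of 5 were lower and 0 higher, against 12.4% and 3.50% of 3459 genes, with *Mmp2* at 42.6 and 12.6 CPM and *Timp2* at 42.2 and 16.2 CPM. The summed level of 12 mesenchyme markers, none at 0, moved with them. It was 3154 CPM in humWT and 1044 CPM in humdG red blood cell-like cells (log2 ratio -1.59) and 1709 and 539 CPM in retinal progenitor-like cells (-1.67). In RPE-like cells the same sum was 2890 and 1352 CPM (-1.10), against 40699 and 34440 CPM in cluster 4 (-0.24). The sum includes *Col1a1*, *Col1a2* and *Col3a1*, which the study reports as made by the RPE and as lower in humdG RPE. The median log2 ratio of the members was -0.85 in retinal progenitor-like and -1.38 in red blood cell-like cells, against -0.03 and -0.06 over all genes counted. In unnamed cluster 15 several members were also past 2-fold lower in humdG while above the red blood cell-like level. *Mmp14* there was at 194 and 81.6 CPM (-1.25) and *Timp2* at 145 and 41.4 CPM (-1.81). *Mmp2* was at 89.5 and 27.0 CPM (-1.73) and *Timp3* at 90.7 and 37.8 CPM (-1.26). Other members there were not past 2-fold, with *Mmp16* at 309 and 284 CPM and *Mmp15* at 14.4 and 15.7 CPM. The mesenchyme marker sum of cluster 15 fell further, from 10293 to 1680 CPM (-2.62). The share past 2-fold over all genes was not counted in this cluster. *Mmp15* in surface epithelium-like cells, given above, was likewise above the red blood cell-like level. So were other levels past 2-fold lower, among them *Mmp2* in muscle-like cluster 2 (84.2 and 32.0 CPM) and in unnamed cluster 0 (77.2 and 32.9 CPM). *Timp2* in amacrine and horizontal-like cells (55.9 and 18.2 CPM) was another. The mesenchyme marker sum was lower in humdG in these groups too, at log2 ratios of -0.76, -1.26 and -1.81. For these groups, too, the share past 2-fold over all genes was not counted. The part of free RNA in each ratio was not tested beyond the subtraction of the red blood cell-like level.

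Over all cells kept, each of the 8 members had a lower level in humdG, with a median log2 ratio of -0.79 against 0.06 over all genes counted. *Mmp2* was past 2-fold, at 137 and 67.9 CPM (log2 ratio -1.01), so 1 of 8 was lower and 0 higher, against 5.54% and 3.79% of 18910 genes. This ratio lay at the 2-fold limit and was -0.87 over the cells of named clusters alone. *Timp1* was at 16.5 and 8.40 CPM (-0.98), *Timp2* at 200 and 105 CPM (-0.93), *Mmp14* at 193 and 106 CPM (-0.86) and *Timp3* at 105 and 64.2 CPM (-0.71). *Mmp16*, which retinal cells also express, was at 136 and 100 CPM (-0.44). These ratios moved with the sex marks of the cells, with *Mmp2* at -1.56 and *Timp1* at -1.21 in cells with *Xist* and no Y-linked UMI, against -0.52 and -0.20 in cells with Y-linked UMIs but none of *Xist*. The make-up of the libraries moved with these sums. Mesenchyme-like cluster 4 was 7.11% of humWT and 2.83% of humdG cells, cluster 7 was 5.79% and 3.16%, and tendon-like cells were 1.503% and 0.319%. These shares of cells also move with the size of unnamed cluster 0, at 3542 humWT and 7559 humdG cells. Within the mesenchyme-like clusters *Mmp2* had log2 ratios of -0.21 (cluster 4), -0.20 (cluster 7) and 0.12 (cluster 11). With 1 pool per genotype, a change in the cells present and a difference in dissection cannot be told apart.

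The triad that activates pro-MMP2 was looked for in single cells, thinned to 3000 UMIs each. UMIs of *Timp2*, *Mmp2* and *Mmp14* were found together in 29.9% of humWT (27.2 to 32.6; 341 of 1142) and 24.6% of humdG cells of cluster 4 (20.9 to 28.5; 125 of 509). Tendon-like cells had 32.4% (26.5 to 38.7) and 42.9% (29.7 to 56.8), with 241 and 56 cells deep enough. Cluster 11 had 16.9% and 18.4%, and cluster 7 had 11.6% (9.61 to 13.8) and 10.5% (8.10 to 13.3). The intervals of the 2 libraries overlapped in each of these. RPE-like cells had the triad in 12 of 381 humWT cells (3.15%, 1.64 to 5.44) and 3 of 178 humdG cells (1.69%, 0.349 to 4.85). Red blood cell-like cells had it in 2 of 373 cells (0.536%, 0.065 to 1.92) and 0 of 175, which allows up to 1.71%. The intervals of these 2 classes overlapped in both libraries, so the counts are too few to tell the RPE-like share from background. The product of the 3 single shares was 25.9% and 21.5% in cluster 4, below the shares observed, and 1.14% and 0.992% in RPE-like cells.

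**Figure D4:**
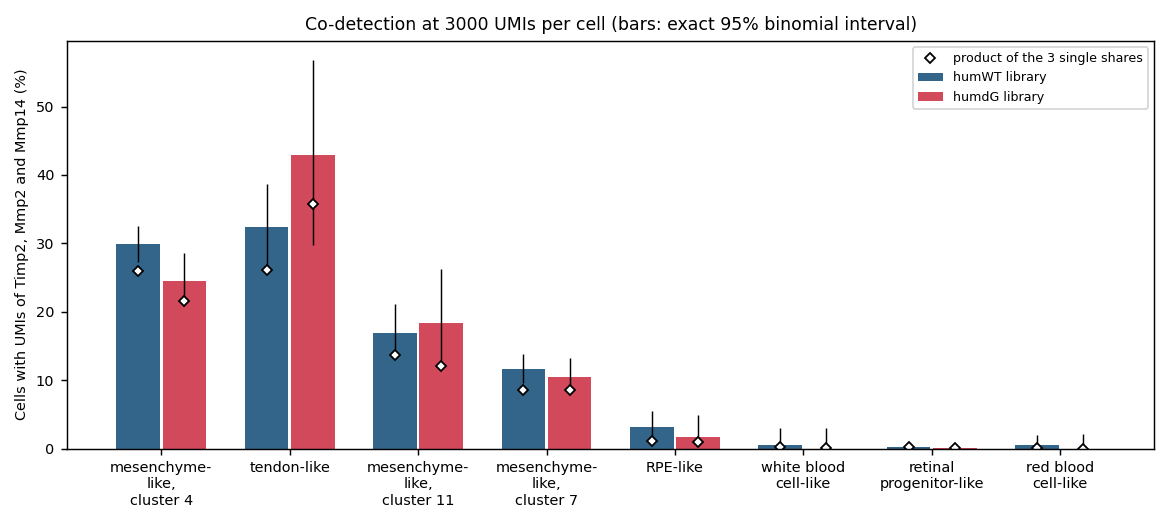
Percentage of cells with at least 1 UMI each of *Timp2*, *Mmp2* and *Mmp14* after thinning to 3000 UMIs per cell, by class and library, with exact 95% binomial intervals; diamonds mark the product of the 3 single shares. Tendon-like cells and mesenchyme-like cluster 4 hold the highest shares, and RPE-like, white blood cell-like, retinal progenitor-like and red blood cell-like cells lie under 4%.

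The wider set of proteases, inhibitors and substrates was taken as 5 lists. Of 18 other matrix metalloproteinases in the tables, *Mmp11* alone reached 50 UMIs in RPE-like cells, at 12.01 and 13.1 CPM. In cluster 4 the highest were *Mmp23* at 57.7 and 43.8 CPM, *Mmp11* at 17.1 and 17.535 CPM and *Mmp19* at 10.3 and 9.16 CPM. Both cluster 4 and cluster 7 had 4 of the list counted and 0 past 2-fold.

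ADAMTS proteases, secreted enzymes that cut proteoglycans and procollagens, were the list furthest from the others in RPE-like cells. Of 9 counted, 4 were at least 2-fold lower and 0 higher in humdG, with a median log2 ratio of -0.67, against 3.99% lower, 1.61% higher and a median of -0.06 over all genes. *Adamts12* had 23.8 and 6.94 CPM (-1.78, -2.59 to -1.05), *Adamts19* 13.9 and 3.86 CPM, *Adamts9* 36.5 and 13.9 CPM and *Adamts3* 11.3 and 5.01 CPM. *Adamts6*, the highest of the list there, was at 61.2 and 38.6 CPM (-0.67). *Adamts12* was higher in cluster 4 of the mesenchyme, at 166 and 151 CPM, and the mesenchyme marker sum given above moved with this list in RPE-like cells. Other marker sums moved there as well. They were lower in humdG for muscle (-1.44), cartilage (-1.34), blood vessel endothelium (-0.84) and tendon (-0.50). They were higher for retinal ganglion cell (0.71), mural (0.63) and red blood cell markers (0.39). Whether RNA of any of these cells adds to the listed genes was not tested. In cluster 4, 0 of 17 ADAMTS genes were past 2-fold, with *Adamts2*, a procollagen N-proteinase, at 168 and 141 CPM and *Adamts5*, an aggrecanase, at 159 and 101 CPM. *Adamts19* in cluster 4 was at 133 and 71.4 CPM (-0.90).

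Among 10 ADAM sheddases, membrane proteases that release ectodomains, 7 were counted in RPE-like cells and *Adam12* was the 1 past 2-fold, at 21.7 and 7.71 CPM, against 3.99% lower over all genes. *Adam10* led with 161 and 142 CPM, ahead of *Adam9* (44.6 and 44.7 CPM) and *Adam17* (41.1 and 30.9 CPM). The mesenchyme marker sum was lower beside *Adam12* (-1.10 in RPE-like cells), as were other marker sums given above. In cluster 4 *Adam12* had 99.6 and 71.5 CPM, *Adam19* 92.7 and 87.6 CPM and *Adam10* 90.8 and 70.1 CPM.

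Of 17 activators, receptors and other inhibitors, 14 were counted in RPE-like cells, with 3 at least 2-fold lower, 0 higher and a median log2 ratio of -0.11, against 3.99% lower, 1.61% higher and a median of -0.06 over all genes. The lower ones were *Plat*, tissue plasminogen activator, at 12.2 and 2.70 CPM, *Thbs2* at 35.8 and 15.04 CPM and *Pcsk6*, a proprotein convertase, at 19.9 and 8.87 CPM, and the mesenchyme marker sum was lower beside them (-1.10). *Bsg*, which induces metalloproteinases in neighbouring cells, was at 2167 and 2663 CPM (0.30, 0.25 to 0.34), and *Thbs1* at 288 and 436 CPM (0.60, 0.48 to 0.72). The collagen chaperone *Serpinh1* had 243 and 258 CPM. In cluster 4 *Serpinh1* had 775 and 658 CPM, *Bsg* 377 and 454 CPM and the endocytic receptor *Lrp1* 410 and 385 CPM, with no ratio of the list past 2-fold in cluster 4 or cluster 7.

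All 13 basement membrane substrates were counted in RPE-like cells, and 2 were at least 2-fold lower, *Lama4* (32.6 and 10.8 CPM) and *Nid1* (45.1 and 15.04 CPM), against 3.99% of all genes and beside the same marker sum of -1.10. *Sparc* had 1446 and 1351 CPM, *Col18a1* 436 and 325 CPM (-0.42) and *Nid2* 335 and 297 CPM. In cluster 4 *Sparc* had 3214 and 2861 CPM, *Fn1* 1248 and 1069 CPM, *Nid1* 705 and 531 CPM and *Col4a1* 393 and 326 CPM. *Lama1* in cluster 4 (2.82 and 5.66 CPM) and *Lama5* in cluster 7 (4.83 and 2.25 CPM) were past 2-fold at low levels (both named after their values were seen). The list's median was -0.22 in RPE-like cells, -0.21 in cluster 4 and -0.53 in cluster 7.

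The genes whose pattern came closest to each member were taken by Pearson correlation of log2(CPM + 10) over 32 points, the 16 named classes in both libraries. The points share 2 libraries and clusters drawn from the same genes, so the values are descriptions. For *Timp3* they were *Nid2* (0.868), *Col4a2* (0.860) and *Sorbs3* (0.847), of which the first encode basement membrane proteins. For *Timp2* they were *Copz2* (0.912), *Oaf* and *Hdlbp* (both 0.892), and for *Timp1* *Meox1* (0.944), *Klf14* (0.928) and *Ssc5d* (0.925). *Mmp2* was nearest to *Rcn3* (0.932), *Postn* (0.9295) and *Ecrg4* (0.924), and *Mmp14* to *Fbln1* (0.940), *Col5a2* (0.934) and *Kdelr3* (0.923), which are stromal matrix and secretory genes in the main. *Mmp15* was nearest to *Pcdh1* (0.926), *Micall2* (0.892) and *Klk8* (0.875), and *Mmp16* to *Sobp* (0.906), *Rab30* (0.890) and *Pcdh9* (0.882). Among the members themselves the highest values were *Timp1* with *Mmp14* (0.82), *Mmp2* with *Mmp14* (0.81), *Timp2* with *Mmp2* (0.81) and *Timp2* with *Mmp14* (0.76). *Timp3* reached 0.34 with *Mmp14* and 0.55 with *Mmp2*.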

How the data were processed

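Raw UMI counts per gene and barcode were deposited by the authors as filtered matrices (Cell Ranger 7.1.0 per the file headers, mm10 and Seurat 4.1.1 per the submitters' processing notes). Cells with over 500 genes and under 15% mitochondrial UMIs were kept. The scrublet threshold (scanpy 1.11.5) marked 1 humWT and 0 humdG barcodes, so the top-scoring 5% of each library were taken out as doublets. Libraries were integrated and clustered in Seurat 5.3.0 (R 4.3.3) on 2000 variable genes, 20 dimensions and resolution 0.5, without the members and listed genes. To be named for a class, a cluster needed 3 or more raised markers (2-fold on CPM + 10, in at least 10% of cells), 1 of them among its 20 leading genes. It stayed unnamed when another class led it, a rule added after seeing the data. Classes with a cluster led in part by another class (mesenchyme, muscle, melanocyte) are compared by cluster number.

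Levels are a gene's UMIs per 1000000 UMIs of all cells in a class (CPM), and ratios are humdG over humWT on that scale. Shares of cells were taken after thinning to 1000 UMIs, or 3000 for 3 genes together, leaving out shallower cells. Named genes were the members, the 3 highest of each list in RPE-like and mesenchyme-like cells, those past 2-fold there, and the 3 genes most like each member with at least 500 UMIs. Members and lists were chosen with earlier results of these data known. The code for ratio intervals was tested on simulated Poisson counts (Python 3.11.15, scipy 1.17.1). These lack the gathering of UMIs in a few cells seen here, and the intervals of levels and shares were not part of that test. Alternatives varied filters, doublets, resolution, integration, scaling, free RNA, single cells, sex marks and depth. The limit of 10000 UMIs and the single clusters were added after seeing the data.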

Additional observations from a re-analysis of the deposited data

How the results depend on the processing

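The lower *Timp3* level of humdG RPE-like cells kept its direction under all 14 alternatives, with log2 ratios from -0.56 to -0.10. The furthest were -0.56 in cells with *Xist* and no Y-linked UMI, -0.38 without the cell holding the most *Timp3* UMIs in each library, -0.35 in the larger cluster and -0.10 in cells with at least 3000 UMIs. Over all cells kept, the number of members at least 2-fold lower (1 as reported) was 0 with under 10% mitochondrial UMIs, at least 3000 UMIs, at least 10000 UMIs, Y-linked UMIs but none of *Xist*, or named clusters alone, 2 without doublet removal or with median ratio scaling, and 5 of 7 with *Xist* and no Y-linked UMI. In RPE-like cells it was 4 of 7 by 3 markers without clusters and 1 with Y-linked UMIs but none of *Xist*, against 0. In retinal progenitor-like cells it was 1 by either sex mark or at least 10000 UMIs, against 2, and 1 was higher with *Xist* and no Y-linked UMI. In endothelium-like cells 1 was lower with *Xist* and no Y-linked UMI. The share past 2-fold over all genes was not counted under these alternatives. RPE cells taken by 3 markers gave log2 ratios of -0.18 for *Timp3*, -1.21 for *Timp2*, -1.41 for *Mmp2*, -1.63 for *Mmp14*, -0.13 for *Mmp15* and 0.01 for *Mmp16*. Of 53 log2 ratios of members in 8 classes, clusters or totals, the alternatives gave 639 further values, of which 51 had the other sign, 12 of these after subtraction of the red blood cell-like level. Called ratios changed sign for *Mmp2* and *Mmp14* in red blood cell-like cells of at least 10000 UMIs (both 0.61), which rest on 1 UMI in each library. The cause was not tested. The limits are 1 library per genotype, unequal sex mixture and tissue make-up, rebuilt class names, and free RNA at levels that matter for *Mmp2* and *Mmp14* in RPE-like cells. *Timp4* and *Timp1* in RPE-like cells were too sparse for a ratio call at this depth.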
